A study of Homo sapiens with 12 samples.

Results

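The collagens, laminins and matrix-remodelling enzymes of CWR22Rv1 cells were examined as 1 group of genes, defined by gene symbol. The group was chosen with earlier results of these data known. It took numbered collagen (COL), laminin (LAM), MMP, TIMP, ADAMTS, ADAMTSL, LOX, FBN and THBS symbols together with FN1, NID1, NID2, TNC and SPARC. Of the 13951 genes listed in the deposited tables, 58 had such a symbol. CWR22Rv1 is an established human prostate carcinoma cell line, studied here in 12 RNA-seq libraries, 3 for each of 4 groups. Cells of the Control group expressed Cas9 without a guide RNA. LV-MEIS1 cells carried exogenous MEIS1 from a lentivirus. HOXB13ko cells were Cas9-expressing cells targeted at HOXB13, with several clones combined into 1 pool, and HOXB13ko-LV-MEIS1 cells were that pool with lentiviral MEIS1. All groups grew with 10% FBS and puromycin at 1 ug/mL and were harvested after 48 h. The sources do not state whether LV-MEIS1 cells carry Cas9, and each group is 1 derived line or pool, so p-values measure the spread between cultures of a line and the effect of a gene cannot be told apart from how its line was derived. The design asks which effects of MEIS1, a homeodomain protein that binds DNA with HOX partners, depend on HOXB13.

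The extracellular matrix is a mesh of secreted proteins around cells. Basement membranes, the sheets on which prostate epithelium rests, are built from laminin trimers (1 alpha, 1 beta and 1 gamma chain) and type IV collagen networks that nidogen links, while fibrillar collagens, fibronectin and thrombospondins belong mainly to the interstitial matrix. Lysyl oxidases cross-link collagen and elastin fibres, metalloproteinases of the MMP and ADAMTS families cut matrix proteins, and TIMPs inhibit the metalloproteinases. Type IV and type VI collagens are heterotrimers, so the balance between their chains matters as well as each level.

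Sequences upstream of genes whose MEIS1 effect differed between the Control and HOXB13ko backgrounds are shown first, because MEIS1 and HOXB13 are DNA-binding proteins. They are the 250 bases before the RefSeq start (GRCh38.p14) of COL6A2, NID1 and FN1, whose MEIS1 effect was more positive without HOXB13 targeting, and of MMP15 and MMP24, whose effect was more negative. For FN1 this difference depended on single libraries, as given below. The last line gives the hg38 bases between the GENCODE v44 starts of COL4A4 and COL4A3, which face away from each other 171 bases apart. The RefSeq start of COL4A4 lies further from COL4A3 (its 250 upstream bases are chr2:227164206-227164455), so this distance depends on the annotation. Capitals mark, on either strand, the 6 letters GGGCGG, found in GC boxes, and the 5 letters CCAAT.
COL6A2 (chr21:46097862-46098111, plus strand): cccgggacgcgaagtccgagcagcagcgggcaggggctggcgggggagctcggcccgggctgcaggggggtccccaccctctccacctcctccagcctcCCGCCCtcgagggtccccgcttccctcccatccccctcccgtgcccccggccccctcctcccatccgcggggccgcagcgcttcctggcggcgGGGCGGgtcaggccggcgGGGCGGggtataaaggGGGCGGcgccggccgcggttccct
NID1 (chr1:236065091-236065340, minus strand): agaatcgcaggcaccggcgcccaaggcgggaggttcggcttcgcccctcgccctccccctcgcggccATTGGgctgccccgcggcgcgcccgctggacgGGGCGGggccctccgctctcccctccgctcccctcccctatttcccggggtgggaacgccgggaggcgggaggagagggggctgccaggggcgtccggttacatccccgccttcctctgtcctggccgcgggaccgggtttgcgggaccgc
FN1 (chr2:215436069-215436318, minus strand): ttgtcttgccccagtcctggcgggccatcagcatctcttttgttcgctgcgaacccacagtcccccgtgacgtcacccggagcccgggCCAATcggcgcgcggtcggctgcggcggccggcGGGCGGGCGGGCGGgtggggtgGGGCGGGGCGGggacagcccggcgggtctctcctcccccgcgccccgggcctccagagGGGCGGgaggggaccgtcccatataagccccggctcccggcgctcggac
MMP15 (chr16:58025504-58025753, plus strand): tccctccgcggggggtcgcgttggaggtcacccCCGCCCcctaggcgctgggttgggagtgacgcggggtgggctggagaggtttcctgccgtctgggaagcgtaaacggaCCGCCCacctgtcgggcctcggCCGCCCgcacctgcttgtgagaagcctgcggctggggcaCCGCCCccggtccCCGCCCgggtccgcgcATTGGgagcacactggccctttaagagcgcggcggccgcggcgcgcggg
MMP24 (chr20:35226440-35226689, plus strand): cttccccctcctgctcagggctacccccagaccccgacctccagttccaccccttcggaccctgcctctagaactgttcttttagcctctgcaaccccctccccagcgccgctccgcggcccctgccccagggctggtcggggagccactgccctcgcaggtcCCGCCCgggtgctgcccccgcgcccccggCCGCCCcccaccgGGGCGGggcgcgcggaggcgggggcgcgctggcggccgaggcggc
COL4A4 to COL4A3 (chr2:227164454-227164623, plus strand): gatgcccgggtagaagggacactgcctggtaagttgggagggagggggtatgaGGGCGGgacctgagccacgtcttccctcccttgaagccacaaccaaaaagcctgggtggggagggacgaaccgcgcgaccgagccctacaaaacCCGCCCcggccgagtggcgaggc
Of the 58 members, 44 had a RefSeq promoter entry. COL1A1, ADAMTS1, COL9A3 and LAMC3 had none. The 6 letters TGACAG, the core of the MEIS recognition sequence, occurred on either strand in the 250 bases of 4 of these 44 members (9.09%). They occurred in 13.1% of the 27305 promoters in the table and in 10.7% of the 10646 promoters of listed genes. The letters CAATAAA and CTCGTAAA, forms of the HOXB13 recognition sequence, occurred in 3 (6.82%) and 0 members. The shares were 3.78% and 0.0916% of all promoters and 2.09% and 0.047% of those of listed genes, and 3 members are few. None of these 3 words was in the 6 sequences printed above. GGGCGG occurred in 34 of 44 members (77.3%), against 42.3% of all promoters and 66.9% of the 10646 promoters of listed genes. CCAAT, which can overlap the first letters of CAATAAA, occurred in 13 (29.5%), against 33.0% of all and 35.1% of those of listed genes. A match of letters is a description of the sequence and not evidence of binding.

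Values are CPM, the share of a library's reads assigned to a gene, scaled by the authors. Tests were limma models of log2(CPM + 0.5) over all 13951 genes, and fold changes are given on that scale and so understate those of genes with few reads. A gene is called here when limma's treat method, which asks whether a change exceeds 1.5-fold, gave an adjusted p under 0.05. Limma's eBayes test against no change is named where it is used. Depth is not given with the values. A rough estimate from steps between low values was 17200000 to 28700000 reads per library (35.1% to 49.8% of values under 1 CPM lay near whole steps), at which 3 reads equal 0.105 to 0.174 CPM, and the lowest member value was 0.198 CPM. MEIS1 was between 45.8 and 49.6 CPM in LV-MEIS1 but between 29.3 and 30.1 CPM in HOXB13ko-LV-MEIS1. HOXB13 mRNA was between 307 and 375 CPM in the 6 libraries labelled HOXB13ko and HOXB13ko-LV-MEIS1 and between 150 and 215 CPM in the others. The mRNA level was thus not lower in the libraries labelled as knockout. The paper reports the knockout from western blots, which measure protein, and mRNA level does not show whether protein was lost. Groups are named as the labels give them. All 11 luminal prostate markers were listed, at summed levels of 2885 to 2945 CPM in LV-MEIS1 and 3590 to 3995 CPM elsewhere, and 0 of 4 basal and 0 of 5 endothelial markers. Fibroblast and smooth muscle markers had 3 of 9 genes listed (PDGFRB, ACTA2 and TAGLN, at 13.6 to 15.9 CPM in LV-MEIS1 and 17.5 to 23.8 CPM elsewhere), and neuroendocrine markers 3 of 6 (ENO2, SYP and CHGB, at 206 to 219 CPM in Control and 162 to 183 CPM elsewhere). ENO2 made up most of the neuroendocrine sum. Among neuroendocrine markers, SYP had mean levels of 16.2 CPM in Control, 1.74 in LV-MEIS1, 3.93 in HOXB13ko and 4 in HOXB13ko-LV-MEIS1, and CHGB had 6.93, 0.343, 1.18 and 1.12 CPM. Both were called lower in LV-MEIS1 (log2 fold change -2.91 and -3.14) and in HOXB13ko (-1.91 and -2.14). The luminal marker KLK2 was called lower in LV-MEIS1 (-1.4). ACTA2 and PDGFRB were called higher in HOXB13ko-LV-MEIS1 than in LV-MEIS1 (1.19 and 1.3). Their part in the results below was not tested.

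The 58 members ranged in mean level from ADAMTSL2 at 1.01 CPM to LAMC1 at 224 CPM, with a median of 9.27 CPM against 29.1 CPM over all genes. Per kilobase of annotated exon, TIMP1 (28.8 CPM per kb) and LAMC1 (26.5) led, followed by LAMB2 (18.7), COL6A1 (17.8), TNC (12.6) and MMP15 (11.9). Only 3 fibrillar collagen genes were listed, COL1A1, COL5A2 and COL27A1. Among matrix genes not listed in the tables were COL1A2, COL3A1, COL4A1, MMP2, MMP7 and MMP9. COL4A2, the usual partner of COL4A1, was listed at 1.78 to 4.07 CPM, and the trimers of type I and of the classical type IV collagen could not be followed as pairs.

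Called members made up a larger share of the 58 than called genes did of all genes in each comparison of lines, apart from HOXB13ko-LV-MEIS1 with HOXB13ko. In LV-MEIS1 against Control, 6 members were called higher (10.3%, against 1.75% of all genes) and 5 lower (8.62%, against 2.24%). In HOXB13ko against Control, 1 was called higher (1.72%, against 0.652% of all genes) and 2 lower (3.45%, against 0.76%), so these shares rest on few genes. In HOXB13ko-LV-MEIS1 against LV-MEIS1, 7 were called higher (12.1%, against 3.29%) and 15 lower (25.9%, against 3.42%). Between HOXB13ko-LV-MEIS1 and HOXB13ko no member was called in either direction (0.00717% and 0% of all genes), and 0 members had an unadjusted treat p under 0.05. The test against no change called 22 members higher and 16 lower in LV-MEIS1 against Control (23.2% and 21.3% of all genes), 13 and 16 in HOXB13ko against Control (16.5% and 16.4%), and 19 and 27 in HOXB13ko-LV-MEIS1 against LV-MEIS1 (24% and 26.1%). The median member change was 0.03, -0.04 and -0.13 (log2) in these 3 comparisons, against 0.01, -0.00 and -0.02 over all genes, so members moved in both directions. The median size of change was 0.42, 0.30 and 0.71 against 0.20, 0.17 and 0.23. Between HOXB13ko-LV-MEIS1 and HOXB13ko, where no member was called, it was likewise larger for members, at 0.17 against 0.09. Members had lower levels than all genes (median 9.27 against 29.1 CPM), and the part of level in these sizes was not tested.

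**Figure D1:**
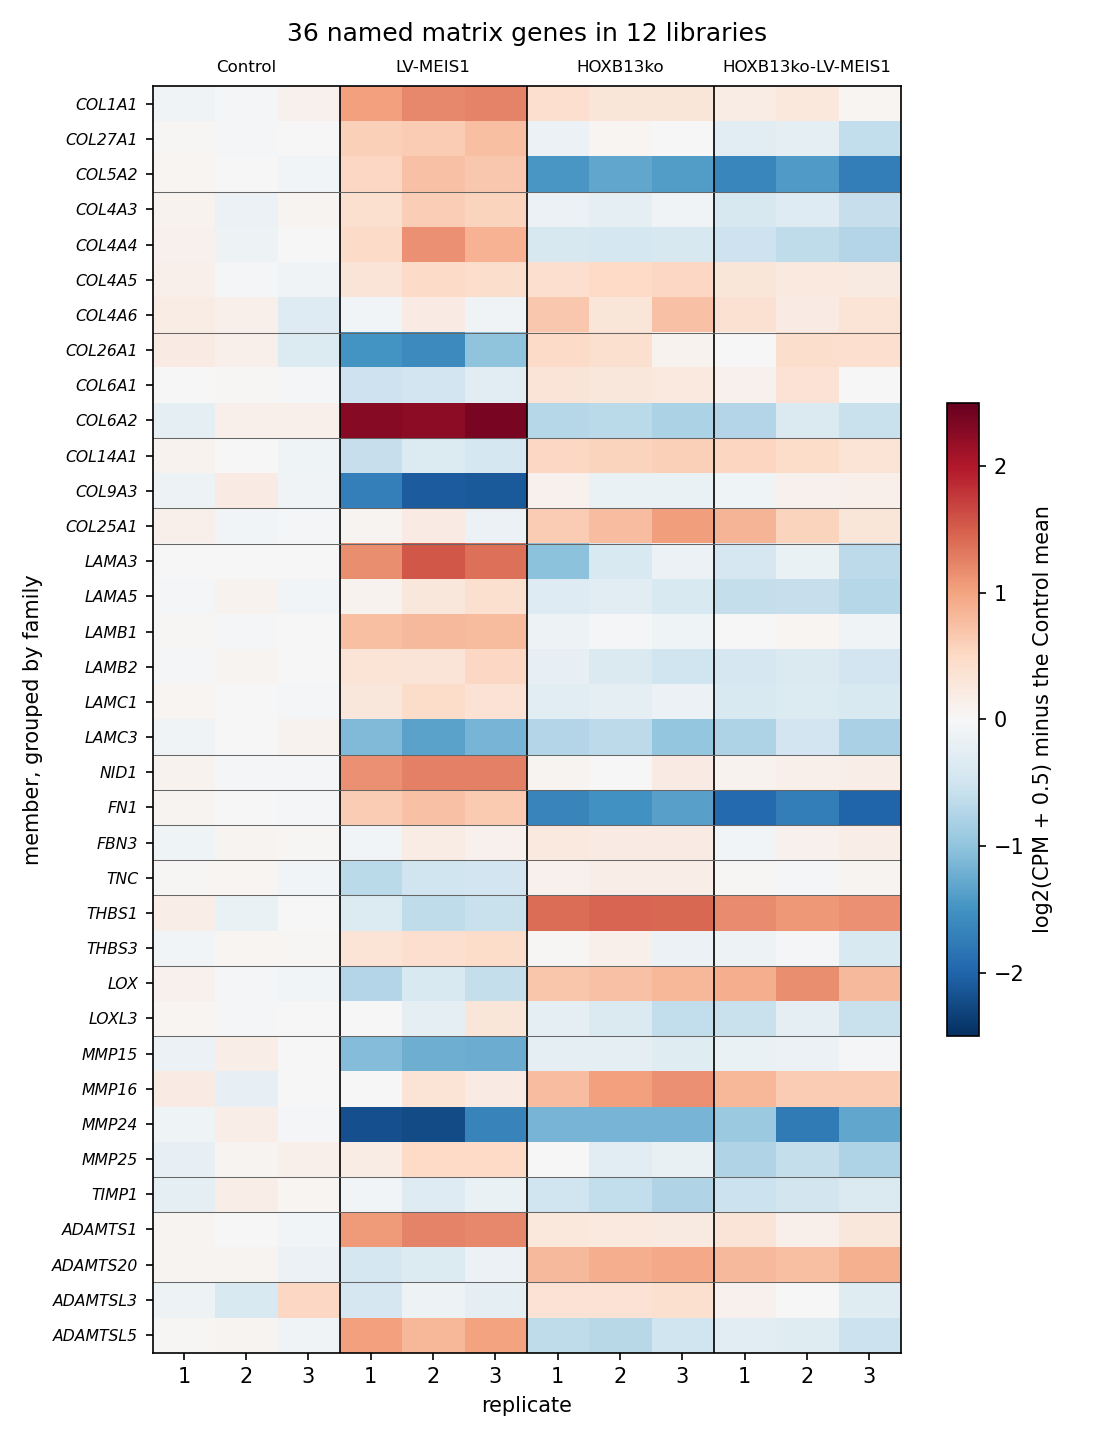
Each row is 1 of the 36 named members, grouped by family, and each column 1 of the 12 libraries; colour gives log2(CPM + 0.5) minus the mean of the 3 Control libraries, from blue (lower) to red (higher). COL6A2 stands out as high and COL9A3 and MMP24 as low in LV-MEIS1, whereas COL5A2 and FN1 are low and THBS1 high in all 6 libraries labelled HOXB13ko or HOXB13ko-LV-MEIS1.

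The 7 listed laminin genes summed to 521 ± 12.8 CPM (SD, n = 3) in Control, 670 ± 36.1 CPM in LV-MEIS1, 428 ± 3.36 CPM in HOXB13ko and 390 ± 12.3 CPM in HOXB13ko-LV-MEIS1. In LV-MEIS1 against Control, 5 of the 7 rose and 1 fell by the test against no change, by which 23.2% of all genes rose and 21.3% fell. LAMA3 and LAMB1 were called higher and LAMC3 lower (1.75% and 2.24% of all genes). Per kilobase, the gamma 1 chain gene LAMC1 (26.5 CPM per kb) and the beta 2 chain gene LAMB2 (18.7) exceeded the alpha 5 gene LAMA5 (6.8) and the beta 1 gene LAMB1 (1.97). Exon length counts every annotated exon base of a gene, 18592 for LAMB1 and 6865 for LAMB2, so per-kilobase values can understate a gene. In CPM the means were 36.7 for LAMB1 and 128 for LAMB2.

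LAMC1, which supplies the gamma chain of most laminins, had 236, 229 and 219 CPM in Control, 277, 315 and 294 CPM in LV-MEIS1, 188, 194 and 206 CPM in HOXB13ko and 175, 180 and 176 CPM in HOXB13ko-LV-MEIS1. LV-MEIS1 lay above and both HOXB13ko groups below all Control libraries, with no overlap between LV-MEIS1 and any other group. It rose 1.29-fold in LV-MEIS1 (log2 fold change 0.37 ± 0.05, SE, eBayes adjusted p = 7.41e-05) without passing the 1.5-fold test. LAMA5, the alpha 5 chain of laminins in adult epithelial basement membranes, had 113, 131 and 141 CPM in LV-MEIS1 and 70.3, 71.2 and 64.6 CPM in HOXB13ko-LV-MEIS1. The groups were separate, and the 1.85-fold difference was called (treat adjusted p = 0.00932), though not without LV-MEIS1 replicate 3 or HOXB13ko-LV-MEIS1 replicate 3 (adjusted p = 0.0652 and 0.0538). LAMB2 ran in parallel, at 170, 167 and 191 CPM against 100, 104 and 96.0 CPM. This 1.75-fold difference was borderline (treat adjusted p = 0.0423) and was lost without any 1 of Control replicate 3, HOXB13ko replicate 2, LV-MEIS1 replicates 1 and 3 and the 3 HOXB13ko-LV-MEIS1 replicates (adjusted p = 0.0561 to 0.247).

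LAMB1, which encodes the beta 1 chain, had 31.9, 30.5 and 31.8 CPM in Control, 53.4, 55.8 and 54.9 CPM in LV-MEIS1, 28.8, 30.5 and 29.2 CPM in HOXB13ko and 31.4, 32.5 and 29.4 CPM in HOXB13ko-LV-MEIS1. The 3 LV-MEIS1 libraries stood above the other 9, which lay within 28.8 to 32.5 CPM. The rise was 1.73-fold (log2 fold change 0.79 ± 0.06, SE, treat adjusted p = 0.0356). This call sat close to the threshold of 1.5-fold and was lost without any 1 of the 3 Control or 3 LV-MEIS1 libraries or HOXB13ko replicate 2 (adjusted p = 0.0505 to 0.147). The fall from LV-MEIS1 to HOXB13ko-LV-MEIS1 (log2 fold change -0.81 ± 0.06, SE, treat adjusted p = 0.0145) was lost without LV-MEIS1 replicate 2 or 3 or HOXB13ko-LV-MEIS1 replicate 3 (adjusted p = 0.0514 to 0.0853). LAMA3, the alpha 3 chain of the laminin that anchors basal epithelium, was low but moved the same way: 2.56, 2.55 and 2.54 CPM in Control, 6.36, 8.44 and 7.44 CPM in LV-MEIS1, 0.995, 1.85 and 2.25 CPM in HOXB13ko and 1.78, 2.21 and 1.44 CPM in HOXB13ko-LV-MEIS1. LV-MEIS1 was again separate from the other groups, 2.58-fold above Control (treat adjusted p = 0.0224, but 0.0625 to 0.116 without any 1 Control library or LV-MEIS1 replicate 2 or 3) and 3.44-fold above HOXB13ko-LV-MEIS1 (adjusted p = 0.000431).

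LAMC3, which encodes the gamma 3 chain, went the other way. It had 15.9, 17.0 and 18.2 CPM in Control, 7.69, 6.43 and 7.34 CPM in LV-MEIS1, 9.97, 10.6 and 8.51 CPM in HOXB13ko and 9.76, 12.1 and 9.50 CPM in HOXB13ko-LV-MEIS1. Control was highest in all libraries and LV-MEIS1 lowest, a 2.29-fold fall (log2 fold change -1.2 ± 0.11, SE, treat adjusted p = 0.00177). In HOXB13ko it fell 1.72-fold by the test against no change (adjusted p = 0.00015), which the 1.5-fold test did not call.

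NID1 encodes nidogen 1, which bridges laminin and type IV collagen (chromosome 1, 235975830 to 236065109). It had 17.0, 15.7 and 15.5 CPM in Control, 36.2, 39.1 and 39.4 CPM in LV-MEIS1, 16.9, 16.2 and 18.5 CPM in HOXB13ko and 17.0, 17.5 and 18.1 CPM in HOXB13ko-LV-MEIS1. LV-MEIS1 stood apart, and the other 9 libraries lay within 15.5 to 18.5 CPM. The rise over Control was 2.33-fold (log2 fold change 1.22 ± 0.07, SE, treat adjusted p = 1.36e-05). The median change of the 10 nearest listed genes was also positive there (0.45 on the log2 scale), and the part of the surrounding chromosome in the NID1 value was not tested.

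Type IV collagen genes are arranged head to head, COL4A3 with COL4A4 and COL4A5 with COL4A6. COL4A3 had 10.1, 8.56 and 9.98 CPM in Control, 12.8, 14.8 and 14.2 CPM in LV-MEIS1, 8.54, 8.09 and 8.91 CPM in HOXB13ko and 7.08, 7.51 and 6.26 CPM in HOXB13ko-LV-MEIS1. Its partner COL4A4 had 4.42, 3.67 and 4.05 CPM, 5.81, 9.47 and 7.77 CPM, 2.93, 2.86 and 2.96 CPM, and 2.66, 2.41 and 2.23 CPM in the same order. Both were highest in LV-MEIS1 and lowest in HOXB13ko-LV-MEIS1, with the LV-MEIS1 libraries separate from all others. From LV-MEIS1 to HOXB13ko-LV-MEIS1, COL4A4 fell 2.75-fold (treat adjusted p = 0.000551) and COL4A3 fell 1.94-fold (adjusted p = 0.0191, lost without LV-MEIS1 replicate 2 or 3 or HOXB13ko-LV-MEIS1 replicate 3 at 0.0718 to 0.103). In the other pair COL4A5 had 78.3 to 90.1 CPM in Control and 104 to 116 CPM in LV-MEIS1, and COL4A6 had 1.35 to 2.15 and 1.67 to 2.16 CPM. The ratio of their CPM was 46.5 ± 10.0 (SD, n = 3) in Control and 60.8 ± 6.96 in LV-MEIS1. COL4A5 rose in LV-MEIS1 (log2 fold change 0.42 ± 0.06, SE) and in HOXB13ko (0.48 ± 0.06) by the test against no change (adjusted p = 6.67e-05 and 4.67e-05). For COL4A6 the LV-MEIS1 change was 0.01 ± 0.17 (adjusted p = 0.961), with the groups overlapping.

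**Figure D2:**
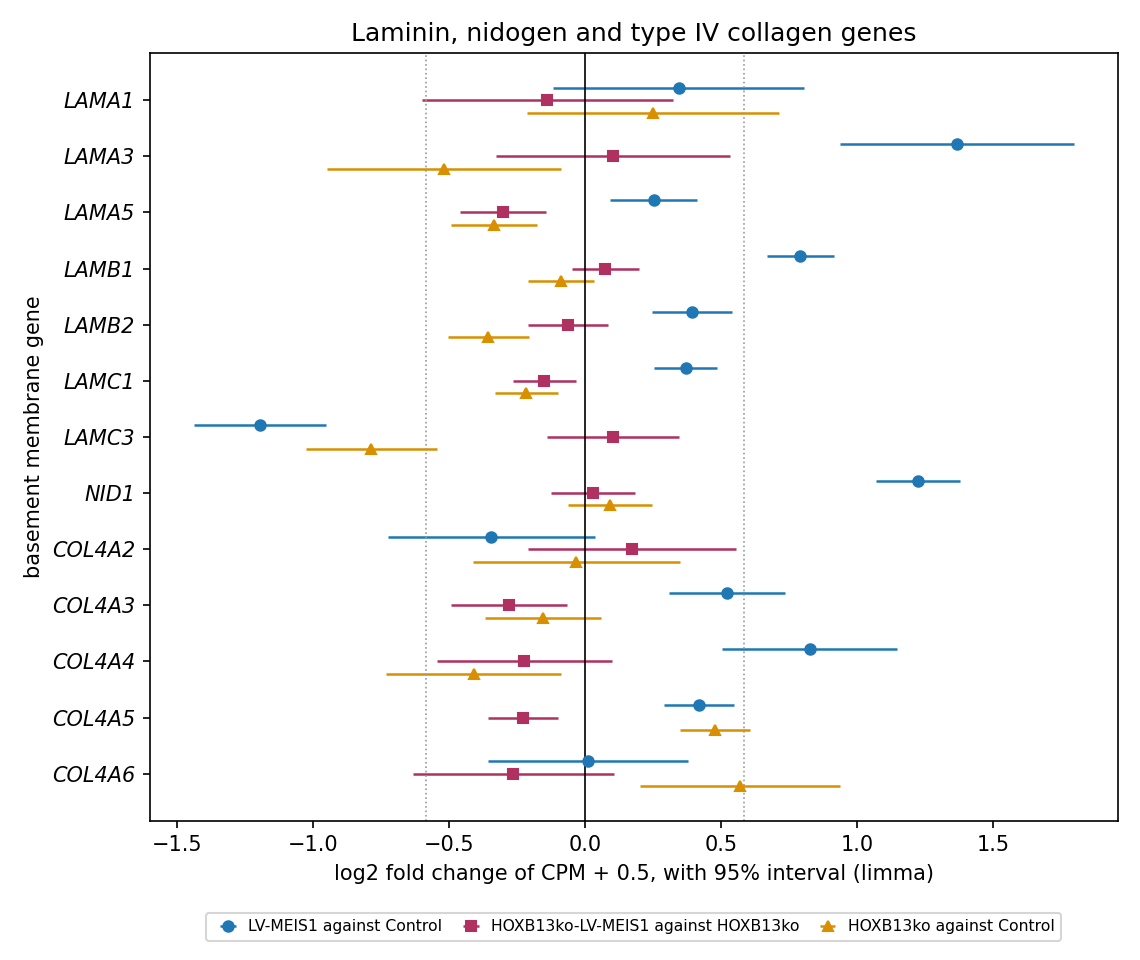
Points give the log2 fold change of CPM + 0.5 for 13 basement membrane genes in 3 comparisons (orange triangles, HOXB13ko against Control), bars the 95% interval from limma (n = 3 libraries per group) and dotted lines a 1.5-fold change. LV-MEIS1 against Control (blue circles) reaches 1.37 for LAMA3, 1.22 for NID1 and -1.2 for LAMC3, whereas the points of HOXB13ko-LV-MEIS1 against HOXB13ko (dark red squares) lie between -0.30 and 0.17.

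Among collagens the widest change was in type VI, whose trimers form beaded filaments around cells. COL6A2, the alpha 2 chain gene (chromosome 21, 46098112 to 46132848), had 9.54, 12.5 and 12.5 CPM in Control, 57.3, 55.4 and 61.7 CPM in LV-MEIS1, 6.75, 7.01 and 6.38 CPM in HOXB13ko and 6.64, 8.79 and 7.66 CPM in HOXB13ko-LV-MEIS1. LV-MEIS1 lay far above the other 9 libraries, and HOXB13ko lay below Control. The rise in LV-MEIS1 was 4.91-fold (log2 fold change 2.30 ± 0.11, SE, treat adjusted p = 3.73e-08), and HOXB13ko-LV-MEIS1 was 7.19-fold below LV-MEIS1 (adjusted p = 1.02e-09). COL6A1, the alpha 1 chain gene on the same strand 93062 bases upstream, had 97.4, 97.8 and 94.2 CPM in Control, 67.2, 69.0 and 79.3 CPM in LV-MEIS1, 120.0, 117 and 114 CPM in HOXB13ko and 104, 124 and 96.1 CPM in HOXB13ko-LV-MEIS1. It moved the opposite way: LV-MEIS1 was below every other library, a fall of 1.34-fold by the test against no change (log2 fold change -0.43 ± 0.08, SE, adjusted p = 0.000705). The ratio of COL6A2 to COL6A1 CPM was 0.0979, 0.128 and 0.133 in Control, 0.853, 0.802 and 0.779 in LV-MEIS1, 0.0562, 0.0600 and 0.0561 in HOXB13ko and 0.0637, 0.0708 and 0.0797 in HOXB13ko-LV-MEIS1. The LV-MEIS1 ratios all exceeded those of the other 9 libraries. Per kilobase of exon, mean COL6A2 was 2.16 against 17.4 CPM per kb for COL6A1 in Control, 10.9 against 13 in LV-MEIS1, 1.26 against 21.1 in HOXB13ko and 1.44 against 19.5 in HOXB13ko-LV-MEIS1. The alpha 3 chain gene COL6A3 stayed far below both, at 0.138 CPM per kb in Control and 0.147 in LV-MEIS1. It had 2.54 to 3.72 CPM in Control and 2.92 to 3.47 in LV-MEIS1, with no eBayes call between them (adjusted p = 0.654).

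COL9A3 encodes a chain of type IX collagen, which decorates the surface of fibrils (chromosome 20, 62816244 to 62841159). Its values were 31.0, 39.1 and 31.6 CPM in Control, 9.96, 7.59 and 7.44 CPM in LV-MEIS1, 36.3, 30.1 and 29.9 CPM in HOXB13ko and 31.2, 36.4 and 37.0 CPM in HOXB13ko-LV-MEIS1. LV-MEIS1 was lowest in all libraries and the other groups overlapped. The fall was 3.91-fold (log2 fold change -1.97 ± 0.12, SE, treat adjusted p = 7.47e-07), and HOXB13ko-LV-MEIS1 was 4.03-fold above LV-MEIS1 (adjusted p = 3.61e-07). COL14A1, a fibril-associated collagen that regulates fibril growth, had 29.1 to 33.5 CPM in Control, 20.9 to 24.5 in LV-MEIS1, 44.8 to 47.8 in HOXB13ko and 39.7 to 45.8 in HOXB13ko-LV-MEIS1. The 1.86-fold difference between the MEIS1 lines was called (treat adjusted p = 0.00917, but 0.0569 without LV-MEIS1 replicate 1 and 0.0576 without HOXB13ko-LV-MEIS1 replicate 1). COL26A1 was low everywhere, at 1.35 to 2.21 CPM in Control and 0.281 to 0.666 CPM in LV-MEIS1. Its 2.57-fold fall was called at an adjusted p of 0.0302, which was 0.116 to 0.143 without Control replicate 1 or 2 or LV-MEIS1 replicate 1 or 2. It was also lost with a pseudocount of 1 (log2 fold change -1.01, treat adjusted p = 0.234) and after quantile normalization (-1.04, 0.405), and a pseudocount of 0.1 gave -1.95, so the size of this fall depends on the pseudocount. HOXB13ko-LV-MEIS1, at 1.86 to 2.69 CPM, was 3.14-fold above LV-MEIS1 (treat adjusted p = 0.00169).

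All 3 fibrillar collagen genes were highest in LV-MEIS1. COL1A1, the alpha 1 chain of type I collagen (chromosome 17, 50184101 to 50201632), had 13.6, 14.1 and 15.7 CPM in Control, 30.0, 33.7 and 34.6 CPM in LV-MEIS1, 19.5, 17.9 and 18 CPM in HOXB13ko and 16.6, 17.5 and 15.0 CPM in HOXB13ko-LV-MEIS1. LV-MEIS1 did not overlap any group, and the rise over Control was 2.22-fold (log2 fold change 1.15 ± 0.08, SE, treat adjusted p = 0.000247). COL27A1, a fibrillar collagen of cartilage, had 27.6 to 28.4 CPM in Control, 42.3 to 47.8 in LV-MEIS1, 25.1 to 29.1 in HOXB13ko and 18.2 to 23.4 in HOXB13ko-LV-MEIS1, and the 2.06-fold difference between the MEIS1 lines was called (adjusted p = 0.00169).

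COL5A2 and FN1 were the members called lower in HOXB13ko. COL5A2, a type V chain that nucleates collagen fibrils (chromosome 2, 189031898 to 189225312), had 48.4, 47.5 and 45.0 CPM in Control, 67.8, 78.1 and 75.0 CPM in LV-MEIS1, 16.9, 18.9 and 17.6 CPM in HOXB13ko and 14.8, 17.2 and 13.8 CPM in HOXB13ko-LV-MEIS1. FN1, fibronectin, a glycoprotein that binds integrins and collagen (chromosome 2, 215360440 to 215436073), had 48.9, 46.1 and 45.1 CPM, 72.5, 78.4 and 74.2 CPM, 14.6, 16 and 18 CPM, and 11.7, 13.7 and 11.3 CPM in the same order. For both genes LV-MEIS1 lay above and the libraries labelled HOXB13ko lay below all Control libraries. In HOXB13ko they fell 2.59-fold (log2 fold change -1.38 ± 0.08, SE, treat adjusted p = 1.89e-05) and 2.84-fold (-1.50 ± 0.09, adjusted p = 6.12e-06), respectively. Their rises in LV-MEIS1, 1.56-fold and 1.60-fold, passed the test against no change (adjusted p = 2.24e-05 and 1.88e-05) but not the 1.5-fold test. Between the MEIS1 lines COL5A2 differed 4.71-fold and FN1 5.94-fold (treat adjusted p = 8.46e-10 and 1.59e-10).

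THBS1 encodes thrombospondin 1, an inhibitor of angiogenesis (chromosome 15, 39581079 to 39599466), and was the member called higher in HOXB13ko. It had 16.9, 13.3 and 15.0 CPM in Control, 11.8, 9.50 and 10.1 CPM in LV-MEIS1, 40.5, 41.9 and 41.2 CPM in HOXB13ko and 34.7, 32.2 and 33.8 CPM in HOXB13ko-LV-MEIS1. The 6 libraries labelled HOXB13ko or HOXB13ko-LV-MEIS1 all exceeded the other 6, and LV-MEIS1 lay below Control. HOXB13ko was 2.69-fold above Control (log2 fold change 1.43 ± 0.09, SE, treat adjusted p = 3.12e-05). TNC, tenascin C, an adhesion-modulating glycoprotein of remodelling tissue, had 121 to 131 CPM in Control, 79.9 to 90.8 in LV-MEIS1, 136 to 143 in HOXB13ko and 124 to 134 in HOXB13ko-LV-MEIS1. It fell 1.46-fold in LV-MEIS1 by the test against no change (adjusted p = 3.05e-06). THBS3, a pentameric thrombospondin, rose 1.32-fold in LV-MEIS1 by that test (35.5 to 38.7 CPM in Control, 47.3 to 51.7 in LV-MEIS1, adjusted p = 0.00205). FBN3, a microfibril protein, stayed within 9.07 to 11.8 CPM over all 12 libraries, with no eBayes call in any comparison.

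**Figure D3:**
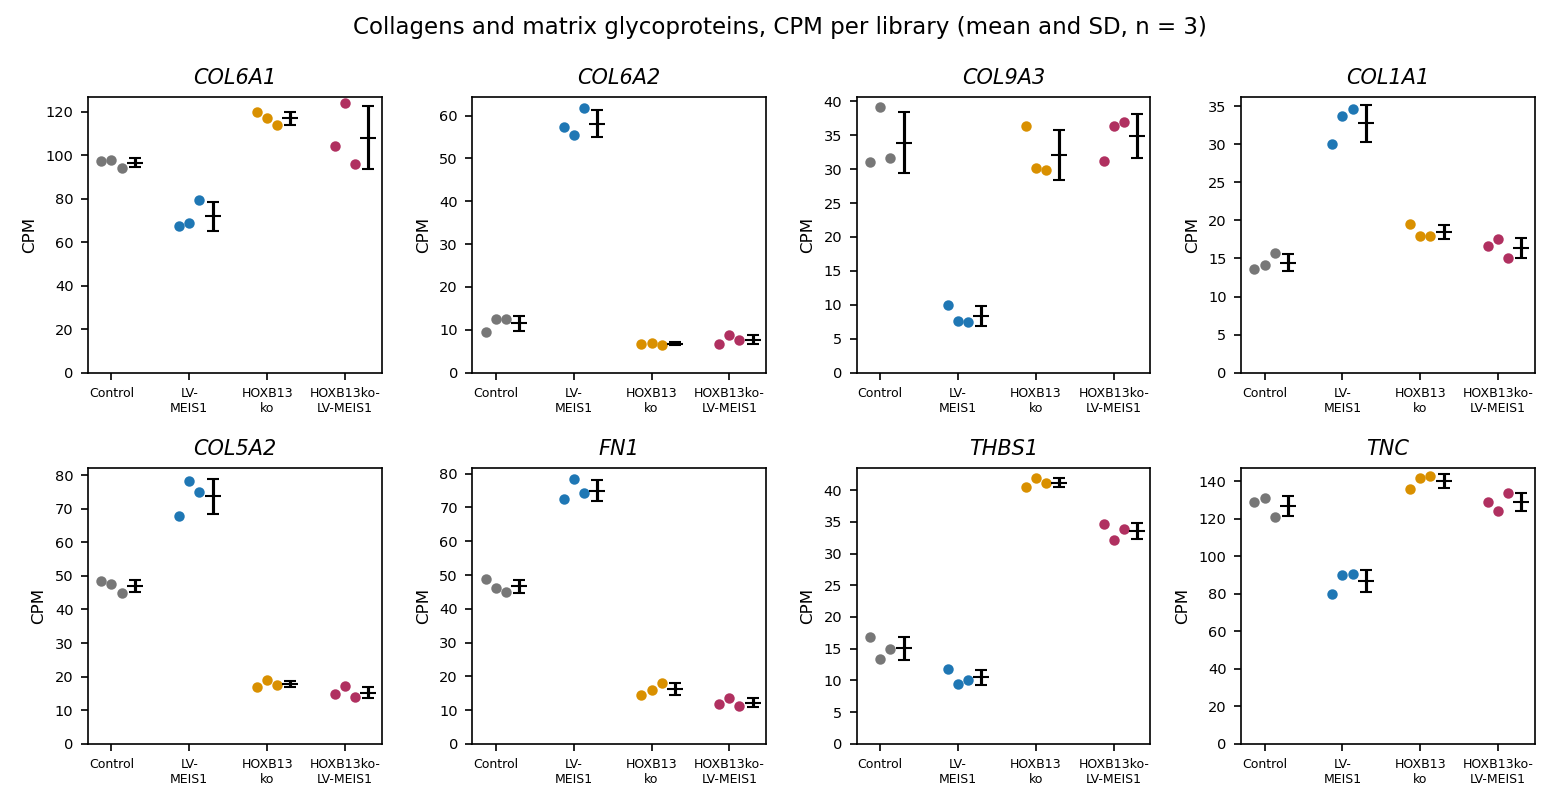
Each panel plots 1 gene, with CPM from 0 on the vertical axis; coloured points are the 3 libraries of each group, and the black mark and bar beside them are their mean and SD. COL6A2 is near 58.1 CPM in LV-MEIS1 and at or below 12.5 CPM elsewhere, COL6A1 is lowest in LV-MEIS1, and THBS1 exceeds 32 CPM only in the groups labelled HOXB13ko and HOXB13ko-LV-MEIS1.

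Metalloproteinases were represented mainly by membrane-anchored MMPs, which cut matrix at the cell surface. MMP15 (chromosome 16, 58025754 to 58046901) had 56.7, 71.1 and 62.5 CPM in Control, 29.4, 26.8 and 26.5 CPM in LV-MEIS1, 53.4, 53.0 and 50.8 CPM in HOXB13ko and 55.9, 57.0 and 61.1 CPM in HOXB13ko-LV-MEIS1. LV-MEIS1 was below all other libraries, a 2.27-fold fall from Control (log2 fold change -1.18 ± 0.08, SE, treat adjusted p = 4.34e-05). MMP24 (chromosome 20, 35226690 to 35276998) had 8.56, 10.5 and 8.93 CPM, 1.65, 1.57 and 2.59 CPM, 3.87, 3.88 and 3.89 CPM, and 4.63, 2.38 and 3.50 CPM in the same order. It was highest in Control in all libraries, 4.09-fold above LV-MEIS1 (log2 fold change -2.03 ± 0.19, SE, treat adjusted p = 7.96e-05). Its 2.24-fold lower level in HOXB13ko passed the test against no change (adjusted p = 0.000502) and not the 1.5-fold test (adjusted p = 0.258).

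MMP16, another membrane-anchored MMP, had 87.9, 65.3 and 75.9 CPM in Control, 76.4, 96.6 and 87.2 CPM in LV-MEIS1, 130, 155 and 169 CPM in HOXB13ko and 136, 118 and 118 CPM in HOXB13ko-LV-MEIS1. Control and LV-MEIS1 overlapped, and both lay below the other 2 groups. The 1.98-fold rise in HOXB13ko passed the test against no change (adjusted p = 2.24e-05). It missed the 1.5-fold test (adjusted p = 0.107) and was called without Control replicate 1 (0.0300) or HOXB13ko replicate 1 (0.0301). MMP25, a GPI-anchored MMP, had 3.14 to 4.06 CPM in LV-MEIS1 and 1.38 to 1.63 CPM in HOXB13ko-LV-MEIS1, and this 2.14-fold difference (treat adjusted p = 0.0322) was lost without LV-MEIS1 replicate 2 or 3 or HOXB13ko-LV-MEIS1 replicate 1 or 3 (0.0978 to 0.143). TIMP1, a broad metalloproteinase inhibitor, had 43.9 to 57.6 CPM in Control, 40.7 to 48.5 in LV-MEIS1, 30.2 to 36.2 in HOXB13ko and 35.3 to 39.9 in HOXB13ko-LV-MEIS1. It fell 1.54-fold in HOXB13ko by the test against no change (adjusted p = 0.00031), with no overlap with Control.

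ADAMTS1, a secreted protease that cuts proteoglycans (chromosome 21, 26835755 to 26845409), had 15.4, 14.8 and 13.9 CPM in Control, 31.3, 35.3 and 34.4 CPM in LV-MEIS1, 17.7, 17.5 and 17.2 CPM in HOXB13ko and 18.4, 16 and 17.9 CPM in HOXB13ko-LV-MEIS1. LV-MEIS1 was separate from the other 9 libraries, 2.25-fold above Control (log2 fold change 1.17 ± 0.08, SE, treat adjusted p = 6.29e-05). ADAMTS20, of the same proteoglycan-cutting class, showed another pattern, with 2.35 to 2.85 CPM in Control and 1.83 to 2.37 in LV-MEIS1 against 5.03 to 5.63 in HOXB13ko and 4.86 to 5.34 in HOXB13ko-LV-MEIS1. Its 2.18-fold difference between the MEIS1 lines was called (adjusted p = 0.00582). ADAMTSL5, a protease-like protein without a catalytic domain, was 2.62 to 2.94 CPM in Control, 5.33 to 6.19 in LV-MEIS1, 1.55 to 1.85 in HOXB13ko and 1.79 to 2.25 in HOXB13ko-LV-MEIS1, and was called 2.48-fold lower in HOXB13ko-LV-MEIS1 than in LV-MEIS1 (adjusted p = 0.000773). ADAMTSL3, of the same family, varied from 6.42 to 12.3 CPM within Control and had no eBayes call.

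LOX, the lysyl oxidase that starts collagen cross-linking, had 4.59, 4.08 and 3.99 CPM in Control, 2.34, 3.12 and 2.63 CPM in LV-MEIS1, 7.07, 7.36 and 7.85 CPM in HOXB13ko and 8.33, 10.0 and 7.82 CPM in HOXB13ko-LV-MEIS1. All 6 libraries labelled HOXB13ko or HOXB13ko-LV-MEIS1 were above Control, and LV-MEIS1 was below it. The 2.89-fold difference between the MEIS1 lines was called (log2 fold change 1.53 ± 0.12, SE, treat adjusted p = 4.14e-05). LOXL3, a lysyl oxidase-like enzyme, overlapped between Control (12.9 to 13.9 CPM) and LV-MEIS1 (11.3 to 16.6 CPM), and 20.7% of its exon bases lie under exons of HTRA2 on the opposite strand.

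**Figure D4:**
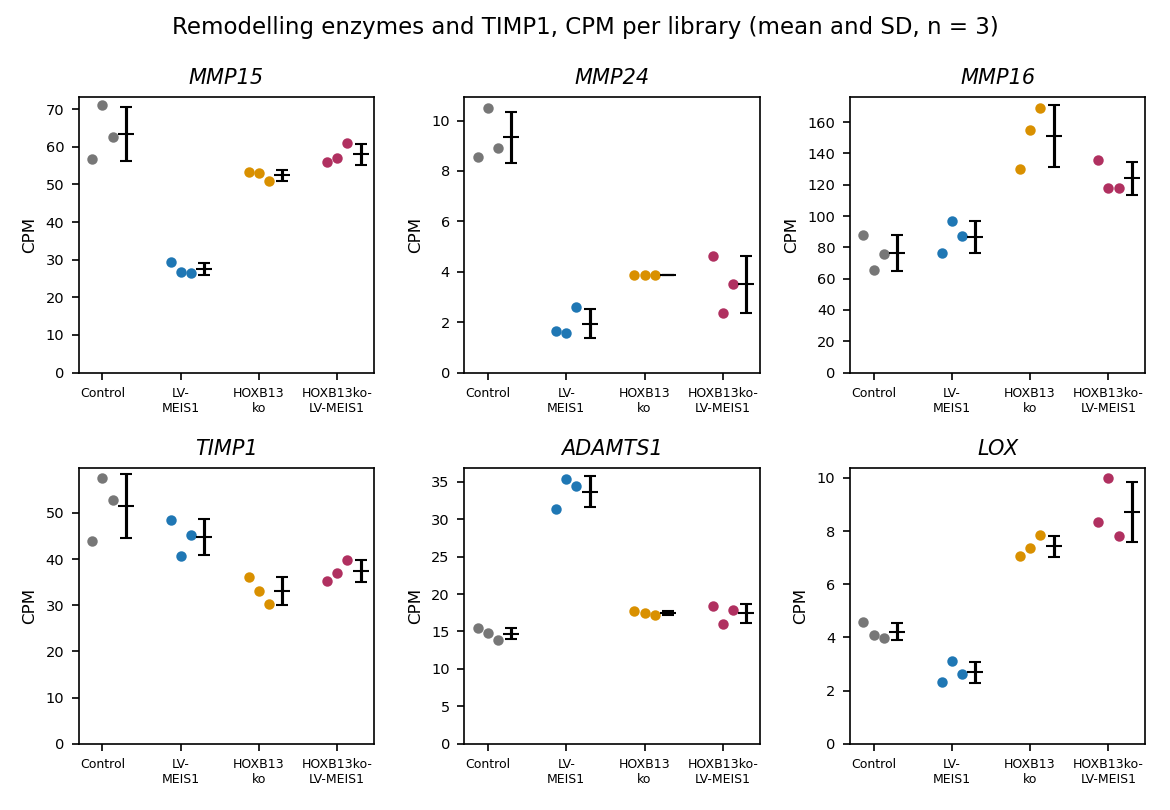
Panels plot CPM from 0 for 5 enzymes and TIMP1, with coloured points for the 3 libraries of each group and black marks for their mean and SD. MMP15 and LOX are lowest and ADAMTS1 highest in LV-MEIS1, MMP24 is highest in Control, and MMP16 is highest in the groups labelled HOXB13ko and HOXB13ko-LV-MEIS1.

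The effect of lentiviral MEIS1 differed between the Control and HOXB13ko backgrounds for 9 members. The difference between the effects, (LV-MEIS1 minus Control) minus (HOXB13ko-LV-MEIS1 minus HOXB13ko) on the log2 scale, was called more positive for 5 members (8.62%, against 1.31% of all genes) and more negative for 4 (6.9%, against 1.62%). The test against no change called 21 and 12 (18% and 16.2% of all genes). The 5 were COL6A2 (2.12 ± 0.16, SE, treat adjusted p = 1.27e-05), COL1A1 (1.32 ± 0.12, 0.000859), NID1 (1.2 ± 0.10, 0.00112), ADAMTS1 (1.17 ± 0.11, 0.00236) and FN1 (1.07 ± 0.12, 0.0252). The 4 were COL9A3 (-2.09 ± 0.17, 2.74e-05), MMP24 (-1.86 ± 0.27, 0.0087), MMP15 (-1.33 ± 0.11, 0.000256) and LAMC3 (-1.30 ± 0.16, 0.0126). The FN1 call was lost without any 1 of 8 libraries (Control replicates 2 and 3, LV-MEIS1 replicates 2 and 3, HOXB13ko replicates 2 and 3 and HOXB13ko-LV-MEIS1 replicates 1 and 3, adjusted p = 0.0521 to 0.0731). Conversely LAMA3, at 1.26 ± 0.28 (adjusted p = 0.333), was called without HOXB13ko replicate 1 (0.0270), and COL27A1, at 1.01 ± 0.13 (adjusted p = 0.077), without HOXB13ko-LV-MEIS1 replicate 2 (0.0468). MEIS1 itself was lower in HOXB13ko-LV-MEIS1 than in LV-MEIS1, as given above, and the part of this unequal level was not tested.

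Within the HOXB13ko background none of these 9 genes passed either test. COL6A2 differed by 0.18 (log2, 95% interval -0.07 to 0.42) between HOXB13ko-LV-MEIS1 and HOXB13ko, COL9A3 by 0.12 (-0.14 to 0.38), NID1 by 0.03 (-0.13 to 0.18) and ADAMTS1 by -0.00 (-0.17 to 0.16). For FN1 the value was -0.39 (-0.57 to -0.21, eBayes adjusted p = 0.104), of opposite sign to its change in LV-MEIS1. Over the 58 members 17 changes were positive, with a median of -0.14 against 0.01 over all genes. Groups did not overlap for 3 members above HOXB13ko (10.6% of all genes) and for 19 below (10.6%), among them LAMC1, LAMA5, COL4A3, COL4A4, COL4A5, COL1A1, COL27A1, FN1, THBS1 and TNC. The eBayes test called 0 members at an adjusted p under 0.05 (0.0215% of all genes higher and 0.0287% lower), with 17 at an unadjusted p under 0.05 (29.3%, against 14.8% of all genes).

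**Figure D5:**
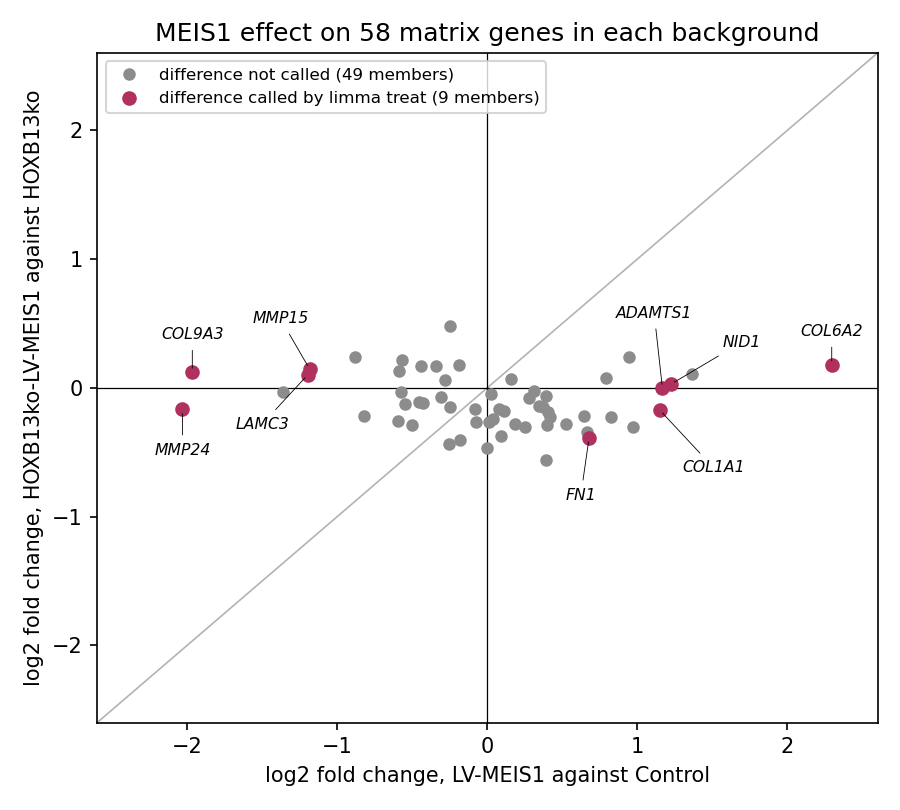
Each point is 1 of the 58 members, with the log2 fold change of LV-MEIS1 against Control on the horizontal and of HOXB13ko-LV-MEIS1 against HOXB13ko on the vertical axis; dark red points are the 9 members whose effects differed by limma treat, and the grey diagonal marks equal effects. Members spread from -2.03 to 2.30 horizontally but only from -0.56 to 0.48 vertically.

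The 22 members outside the named set had mean levels of 1.01 CPM (ADAMTSL2) to 39.9 CPM (COL7A1), and none was called by the 1.5-fold test. Their log2 fold changes lay between -0.88 and 0.97 in LV-MEIS1 against Control, between -0.79 and 0.68 in HOXB13ko against Control, between -0.47 and 0.48 in HOXB13ko-LV-MEIS1 against HOXB13ko and between -0.88 and 0.97 in HOXB13ko-LV-MEIS1 against LV-MEIS1. The test against no change called 4 higher (ADAMTS3, COL28A1, FBN2 and TIMP2) and 6 lower (ADAMTS7, ADAMTSL2, COL9A2, LOXL1, MMP17 and THBS4) in LV-MEIS1 against Control. Over all genes 23.2% were called higher and 21.3% lower there, so these counts are near those shares. COL25A1, the only transmembrane collagen listed, rose 1.76-fold in HOXB13ko by that test (2.81 to 3.31 CPM in Control, 4.92 to 6.70 in HOXB13ko, adjusted p = 0.0017). Over all 5 comparisons 52 members had an eBayes call (89.7%, against 70.4% of all genes), and ADAMTS13, ADAMTS4, ADAMTSL3, COL18A1, FBN3 and LAMA1 had none.

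Other matrix genes, taken as lists by role, moved in part with the members. Of 46 other basement membrane and matrix glycoproteins 19 were listed. Their median change from Control to LV-MEIS1 was 0.29 (log2), against 0.01 over all genes. The 1.5-fold test called 4 of the 19 higher and 1 lower there, against 1.75% and 2.24% of all genes. The gene called lower was SPOCK1, which fell from 181 ± 7.75 to 104 ± 5.22 CPM (SD, n = 3, treat adjusted p = 0.0116). HSPG2, perlecan, the heparan sulfate proteoglycan of basement membranes, rose with MEIS1 in the Control background, where its mean went from 3.55 ± 0.681 to 8.94 ± 0.913 CPM (SD, n = 3; limma treat adjusted p = 0.0106), and it was 1.70 ± 0.146 CPM in HOXB13ko-LV-MEIS1. SMOC1, a calcium-binding basement membrane protein, rose from 8.12 ± 0.869 to 35.6 ± 0.763 CPM (adjusted p = 4.81e-08), and NPNT, the integrin ligand nephronectin, from 47.3 ± 3.65 to 94.5 ± 5.41 CPM (adjusted p = 0.00112). In HOXB13ko against Control 0 of the 19 were called higher and 3 lower (SMOC1, EFEMP1 and EMILIN2), against 0.652% and 0.76% of all genes. In HOXB13ko-LV-MEIS1 against LV-MEIS1 1 was called higher and 4 lower, against 3.29% and 3.42% of all genes. Of 23 listed genes of collagen modification and secretion, 1 was called higher and 0 lower in LV-MEIS1 against Control, where 1.75% and 2.24% of all genes were, and 5 were higher and 9 lower by eBayes, against 23.2% and 21.3%. The gene called was MIA3, which loads procollagen into transport vesicles (166 ± 10.5 to 308 ± 19.1 CPM, adjusted p = 0.012). Among 9 listed matrix receptors other than integrins, CD44, the hyaluronan receptor, fell from 43.1 ± 1.36 to 22.5 ± 1.08 CPM in LV-MEIS1 (adjusted p = 0.000408), and BCAM, a receptor for laminin alpha 5, fell from 58.4 ± 4.03 to 29.8 ± 3.83 CPM in HOXB13ko (adjusted p = 0.0437). Of the 17 listed genes of pericellular protease control, 0 were called by treat in each comparison, where at most 3.42% of all genes were called in 1 direction, so the count is near that share. By eBayes 4 of them were higher and 3 lower in LV-MEIS1 against Control, near the 23.2% and 21.3% of all genes. In HOXB13ko against Control 1 was higher and 6 lower, against 16.5% and 16.4% of all genes.

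Reads were assigned without strand, so genes that share exon bases on opposite strands cannot be told apart there. For called members that share was at most 3.2% (COL9A3 under TCFL5), with LAMB1, LAMA5 and LOX at 1.6%, 1.7% and 2.5%. The median change of the 10 nearest listed genes in LV-MEIS1 against Control was within 0.20 of zero (log2) for COL6A2 (-0.20), COL9A3 (-0.04), COL1A1 (-0.11), ADAMTS1 (-0.03), FN1 (0.06), MMP15 (-0.09), MMP24 (-0.16) and LAMC3 (-0.16), unlike NID1.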

How the data were processed

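RNA-seq of poly-A RNA was deposited for 12 CWR22Rv1 libraries (3 per group). Per the study's methods and processing notes, the authors trimmed 50 bp single-end reads using Trimmomatic 0.38, pseudo-aligned the rest to the GRCh38.p12 transcriptome of Ensembl in kallisto 0.43.1 without strand, summed them to genes with tximport, removed genes with low counts, normalised in edgeR 3.22.2 and deposited CPM. Values are not whole reads, so no count model was fitted. Of 13993 rows, 42 exact repeats were left out. Linear models with 1 mean per group and no replicate term were fitted to log2(CPM + 0.5) in limma 3.58.1 (R 4.3.3), with treat against a fold change of 1.5, or eBayes, and Benjamini-Hochberg adjustment over 13951 genes. In simulated data for LV-MEIS1 against Control over 13951 genes, treat called 97 of 100 genes changed 4-fold, 40 of 100 changed 2-fold and 0 unchanged genes. The eBayes test called 9 unchanged genes. The simulation used the rough depth estimates and 1 assumed dispersion for every gene, not estimated from these libraries, so these rates need not hold for the data. Named members were those called in any comparison, the most abundant of each family, and the partners of named type IV collagen or laminin pairs. The members, lists and tests were chosen with earlier results of these data known. Positions and exon lengths came from GENCODE v44 (GRCh38), matched by symbol for all 58 members and 94.7% of listed genes. Alternatives were other pseudocounts, scalings, filters, thresholds and tests, fits of only the libraries compared, a replicate block, all rows kept, and leaving out each library. Results of some marker genes are not reported here.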

Additional observations from a re-analysis of the deposited data

Results flagged for a closer look

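The MEIS1 effect differed between the Control and HOXB13ko backgrounds for 9 members, by the interaction term of the limma fit. On the log2 scale the difference was 2.12 for COL6A2, 1.32 for COL1A1, 1.2 for NID1, 1.17 for ADAMTS1 and 1.07 for FN1, and it was -2.09 for COL9A3, -1.86 for MMP24, -1.33 for MMP15 and -1.30 for LAMC3. The FN1 call was lost in 8 of the 12 fits without 1 library (treat adjusted p = 0.0521 to 0.0731). Each group had 3 libraries, which is too few for a test of single outlying libraries.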

How the results depend on the processing

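The test decided how many members were called. Against no change (eBayes) the counts were 38 in LV-MEIS1 against Control, 29 in HOXB13ko against Control, 46 in HOXB13ko-LV-MEIS1 against LV-MEIS1 and 33 in the difference of the MEIS1 effects, and with a fold change over 1.5 applied afterwards they were 21, 14, 34 and 27, against 11, 3, 22 and 9 by treat. HOXB13ko-LV-MEIS1 against HOXB13ko gave 0 members under all alternatives. Without 1 library the counts were 8 to 11, 3 to 4, 17 to 22 and 8 to 10 in that order, and 0 to 0 for HOXB13ko-LV-MEIS1 against HOXB13ko. Of the 45 calls, 35 were kept in all 12 fits without 1 library, and no call changed direction under any alternative. Other alternatives ended calls of COL26A1 and LAMB1 in LV-MEIS1 against Control and of MMP25, COL4A3 and LAMB2 in HOXB13ko-LV-MEIS1 against LV-MEIS1. With a pseudocount of 1 these were COL26A1 (adjusted p = 0.234) and MMP25 (0.117), after quantile normalization COL26A1 (0.405), COL4A3 (0.147) and MMP25 (0.14), with median-of-ratios scaling LAMB2 (0.0556), and with only the compared libraries COL26A1 (0.0861), LAMB1 (0.0987) and MMP25 (0.0598). At an adjusted p under 0.01, 36 of the 45 calls remained. Replicate numbers did not pair the libraries (mean correlation of deviations -0.06 for the same number and 0.03 for different numbers), and with a replicate block 9, 3, 20 and 9 members were called and 0 for HOXB13ko-LV-MEIS1 against HOXB13ko; the block ended the calls of COL26A1 (0.0619), LAMB1 (0.0715), LAMB2 (0.0843) and MMP25 (0.0529). Under other scalings the median change over all genes was at most 0.06 (log2) in size. Precision was lower for several members at a few CPM or less. In LV-MEIS1 against Control the SE was 0.28 for ADAMTSL2, 0.21 for COL26A1, 0.20 for LAMA3, 0.19 for MMP24 and 0.15 for MMP25. Having 3 libraries per group of 1 line each limits what the p-values cover.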
